A study of Mus musculus with 4 samples.

Results

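The genes described here were 10 components of fibroblast growth factor (FGF) signalling: the receptors Fgfr1, Fgfr2, Fgfr3 and Fgfrl1, the ligands Fgf2 and Fgf7, and the feedback genes Spry1, Spry2, Spry4 and Dusp6. They were taken by gene symbol from the 54532 genes of the count table, each symbol matched 1 row, and 10 of 10 had a mean of at least 1 CPM (counts scaled to a library size of 1000000) over the libraries, as did 13233 genes in all. Poly(A) RNA was sequenced from C3H10T1/2 cells, a mouse embryo mesenchymal stem cell line. The 4 groups, each a single library, were cells given control siRNA (control), cells given siRNA against DNMT1, the enzyme that keeps DNA methylation through cell division (siDNMT1), and each of these after osteoblast induction (OB and siDNMT1_OB). Transfection lasted 48 h. The induction medium, given for 3 days, held 50 µM ascorbic acid, 10 mM glycerophosphate and dexamethasone.

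FGF ligands bind receptor tyrosine kinases at the cell surface together with heparan sulfate. The activated receptor recruits adaptors that switch on RAS and the MAP kinases, and these induce both transcription factors and inhibitors of the pathway itself, among them the Sprouty proteins and the ERK phosphatase DUSP6. FGF signalling is known to govern the proliferation of skeletal progenitors and their entry into bone and cartilage lineages.

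Total counts ranged from 22296046 to 27367792 per library. As 1 library stood for each group, no difference had a replicate check. Intervals are exact 95% limits of counting error alone, and they leave out the variation between cultures. Those of a difference between effects use a normal approximation. Dnmt1, the targeted gene, gave 7195 counts with control siRNA and 3375 with siDNMT1 in the untreated state, then 1931 and 2492 after induction. The log2 fold change of Dnmt1 was -1.01 (interval -1.07 to -0.95) in siDNMT1 against control and 0.13 (0.04 to 0.21) in siDNMT1_OB against OB. The second value goes against the label of the last library, so that library is called the library labelled siDNMT1_OB throughout. With induction Dnmt1 was lower, at -1.63 (-1.71 to -1.56) in OB against control and -0.50 (-0.58 to -0.43) in the library labelled siDNMT1_OB against siDNMT1. Whether the siRNA effect had faded by then or the label is wrong was not tested. A siDNMT1 difference or effect after induction stands for that library against OB, by its label. Mesenchymal markers summed to 26766 to 33476 CPM and 10 of 10 were detected. Osteoblast markers summed to 627 CPM in the control library, 304 in siDNMT1, 261 in OB and 361 in the library labelled siDNMT1_OB. Of these 7 markers, Runx2 had 1644 to 2459 counts, Spp1, which carried the change in the sum, 4226 to 14862, Dmp1 8 to 80, Ibsp 1 to 17 (highest in the library labelled siDNMT1_OB) and Sp7 1 to 8. Alpl and Bglap were at or under 3 counts in every library, the induced ones included. Epithelial and macrophage markers summed to at most 1.03 and 3.27 CPM. Cycling-cell markers (6 of 6 detected) summed to 1891 CPM in the control library, 1732 in siDNMT1, 411 in OB and 796 in the library labelled siDNMT1_OB. Fewer cells of a type and less RNA per cell cannot be told apart in such bulk libraries.

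Fgfr2 and Spry1 were higher in siDNMT1 than in control and, against OB, in the library labelled siDNMT1_OB, where Fgfr2 at 0.72 stayed under the size of 1 used for a call. By contrast Spry2, a paralogue of Spry1, was 0.13 lower and 0.18 higher on the log2 scale. The 250 bases before the RefSeq transcription start of these genes are shown, with each CG in capitals (build GRCm38.p6, written 5′ to 3′ on the strand of the gene).

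Fgfr2, chr7:130266809-130267058, minus strand: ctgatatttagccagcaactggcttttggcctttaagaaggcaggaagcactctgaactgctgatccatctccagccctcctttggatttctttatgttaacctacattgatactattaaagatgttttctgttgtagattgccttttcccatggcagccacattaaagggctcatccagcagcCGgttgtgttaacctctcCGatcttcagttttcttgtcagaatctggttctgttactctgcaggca

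Spry1, chr3:37639697-37639946, plus strand: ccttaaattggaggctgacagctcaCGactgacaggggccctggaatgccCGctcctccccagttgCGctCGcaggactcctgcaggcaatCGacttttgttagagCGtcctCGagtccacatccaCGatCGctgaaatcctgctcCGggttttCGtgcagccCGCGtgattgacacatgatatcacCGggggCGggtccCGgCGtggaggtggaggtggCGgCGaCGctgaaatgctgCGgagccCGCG

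Spry2, chr14:105896820-105897069, minus strand: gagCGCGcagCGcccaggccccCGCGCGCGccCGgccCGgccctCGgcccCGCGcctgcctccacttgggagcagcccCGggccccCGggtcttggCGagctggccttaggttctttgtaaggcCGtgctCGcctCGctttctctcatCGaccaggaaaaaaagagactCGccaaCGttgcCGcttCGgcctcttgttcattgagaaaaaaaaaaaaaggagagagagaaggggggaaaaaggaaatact

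Fgfr2 had 2 CG in this window, and 81.2% of 32851 mouse promoter windows of the same length held at least as many. Spry1 and Spry2 each had 23, a number reached by 13.3% of the windows. Of 10 genes, 8 had a RefSeq entry in the table used, and in the others the window held from 6 CG in Fgf7 to 30 in Fgfrl1. In the GENCODE annotation the 4 nearest Fgfr2 starts lay 545, 563, 617 and 4951 bases downstream of the RefSeq start, and the DNA between them was not read here. The Fgfr2 window lies upstream of all 4, so its CG number does not describe the DNA at those starts. The count table holds no methylation measurement.

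**Figure D1:**
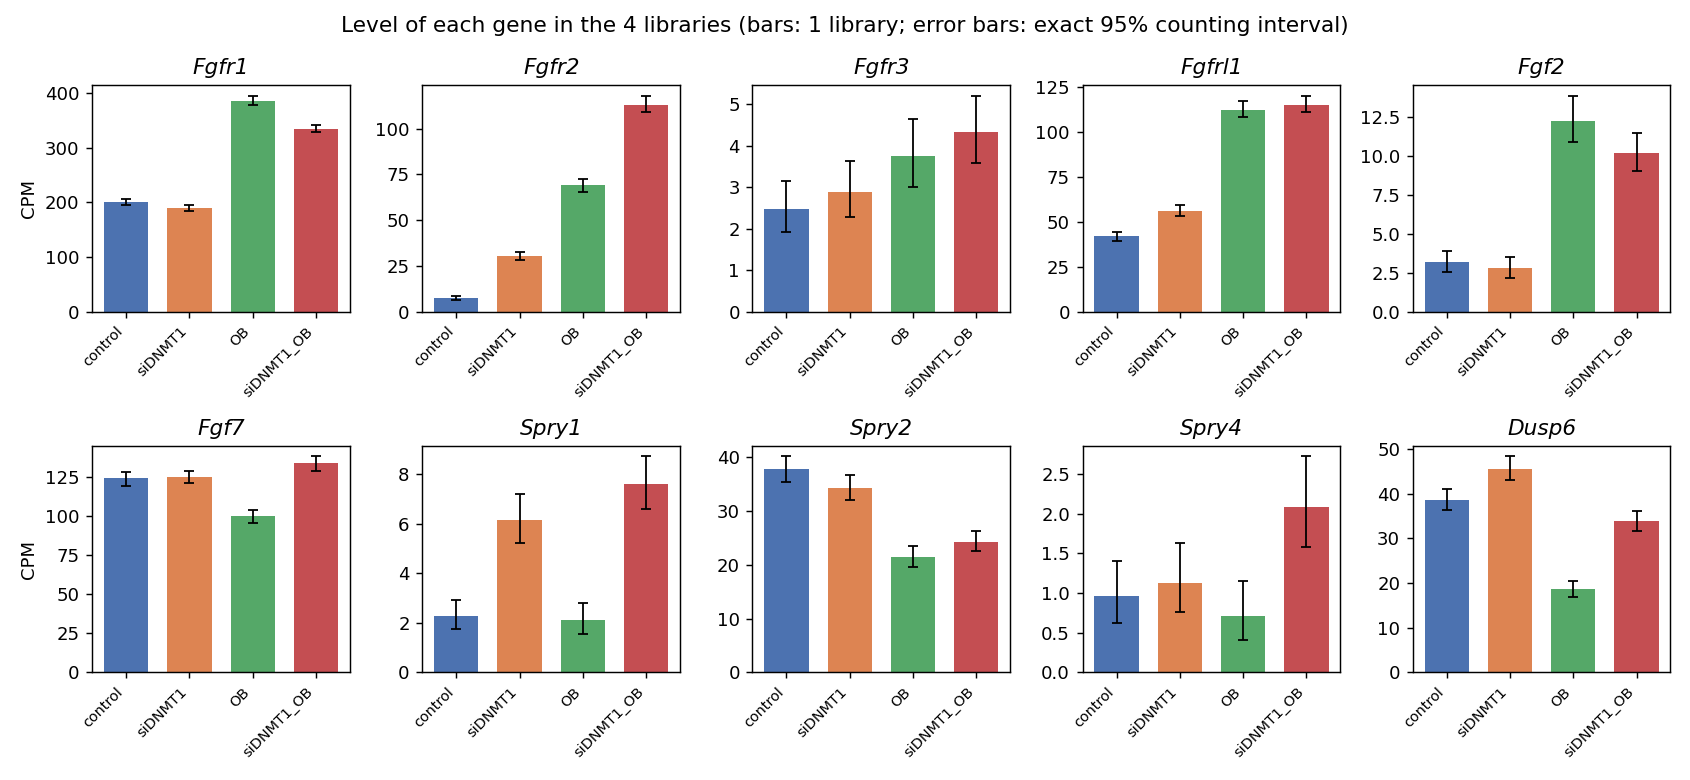
Level of each gene in CPM (vertical axis, from 0, its own scale in each panel) in the control, siDNMT1 and OB libraries and the library labelled siDNMT1_OB, 1 library per bar, with exact 95% counting intervals. Fgfr2 runs from 7.56 CPM in control to 113 CPM, Spry1 is high in the 2 libraries labelled with DNMT1 siRNA, and Dusp6 is lowest in OB at 18.6 CPM.

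Among the receptors, Fgfr2, a receptor for FGFs in skeletal and epithelial development, had the widest range. It had 205 counts (7.56 CPM) in control, 777 (30.3 CPM) in siDNMT1, 1560 (69 CPM) in OB and 3037 (113 CPM) in the library labelled siDNMT1_OB. Each library lay above the one before in that order, with no overlap of counting intervals. The log2 fold change of scaled CPM was 1.99 (1.78 to 2.23) in siDNMT1 against control and 3.18 (2.98 to 3.41) in OB against control. It was 0.72 (0.63 to 0.81) in the library labelled siDNMT1_OB against OB and 1.90 (1.79 to 2.02) in the same library against siDNMT1. The difference of the siDNMT1 effects, OB state minus untreated, was -1.28 (-1.51 to -1.04) for Fgfr2. The factor was thus smaller after induction. Dnmt1 itself was not lower there, and a link between these values was not tested.

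Fgfr1 (chr8:25513654-25575718, plus strand, all on GRCm38), the main FGF receptor of mesenchymal cells, had 5451 counts (201 CPM) in control, 4867 (190 CPM) in siDNMT1, 8737 (386 CPM) in OB and 8968 (335 CPM) in the library labelled siDNMT1_OB. Both induced libraries were high and both untreated ones low. Its log2 fold change in OB against control was 0.94 (0.89 to 0.99), just under the size of 1 used here to call a gene, and 0.82 (0.77 to 0.87) in the library labelled siDNMT1_OB against siDNMT1. Against the library with control siRNA it was -0.08 (-0.14 to -0.03) in the untreated state and -0.21 (-0.25 to -0.16) after induction, so Fgfr1 was slightly lower where Fgfr2 was higher.

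Fgfrl1 (chr5:108692382-108706924, plus strand) encodes an FGF receptor without a kinase domain, often described as a decoy. It had 1137 counts (41.9 CPM) in control, 1439 (56.2 CPM) in siDNMT1, 2538 (112 CPM) in OB and 3090 (115 CPM) in the library labelled siDNMT1_OB. Both induced libraries again lay above both untreated ones, with log2 fold changes of 1.42 (1.32 to 1.52) and 1.04 (0.95 to 1.13). The siDNMT1 difference of Fgfrl1 was 0.42 (0.31 to 0.54) before induction and 0.04 (-0.04 to 0.12) after it, the second within counting error. Fgfr3 (chr5:33721674-33737068, plus strand), a receptor known for its restraint of growth plate cartilage, was low, with 67 counts in the control library, 74 in siDNMT1, 85 in OB and 116 in the library labelled siDNMT1_OB. Its induction differences were 0.59 (0.13 to 1.09) and 0.57 (0.15 to 1.03), and its siDNMT1 differences of 0.22 (-0.27 to 0.72) and 0.20 (-0.21 to 0.63) were not detectable at this depth.

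As a share of the kinase receptors, compared as CPM per kilobase of exon, Fgfr2 gained and Fgfr1 lost. The level of Fgfr1 itself did not fall with induction, at 20.4 CPM per kb in control and 39.1 in OB. Fgfr2 made up 3.42% of the per-length level of Fgfr1 to Fgfr4 in the control library, 13% in siDNMT1, 14.4% in OB and 24.1% in the library labelled siDNMT1_OB. Fgfr1 made up the bulk of the rest, with 95%, 85.1%, 84.4% and 74.5% in the same order, and its per-length level was 27.8, 6.55, 5.86 and 3.09 times that of Fgfr2. Fgfr4 was listed with 0, 2, 1 and 1 counts. The counts are per gene, so the epithelial and mesenchymal splice forms of Fgfr2, which bind different ligands (FGF7 binds the epithelial form), were not separated.

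**Figure D2:**
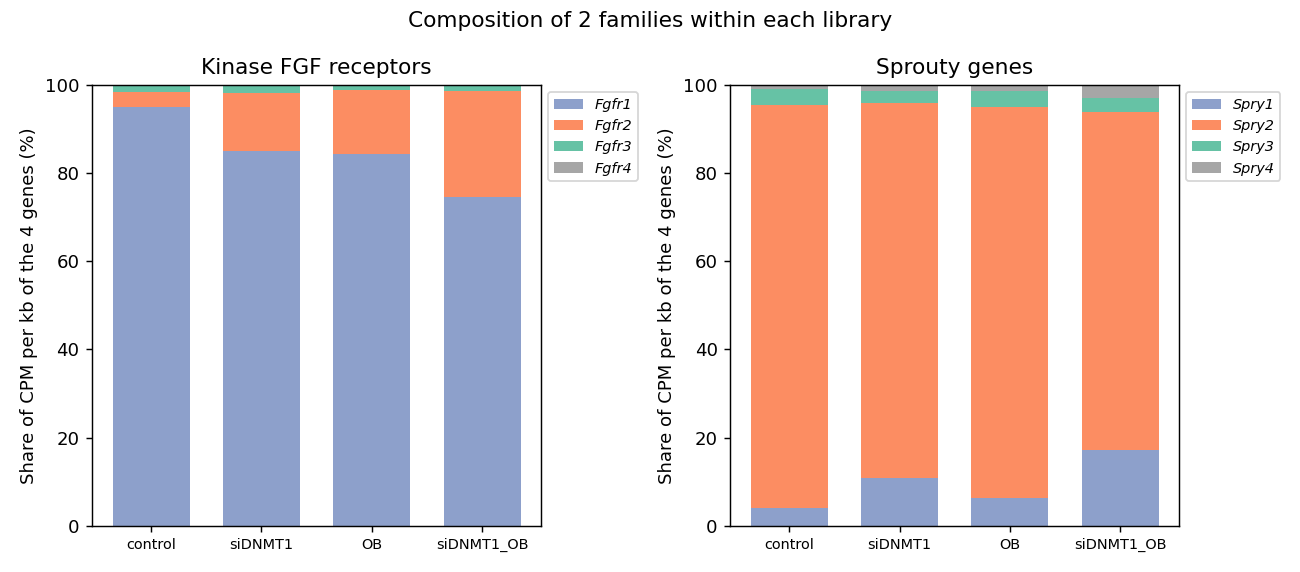
Share of each gene in the summed CPM per kb of the 4 kinase receptors (left) and of the 4 Sprouty genes (right), in percent, in each library, siDNMT1_OB being a label that its Dnmt1 count goes against. The Fgfr2 part grows from 3.42% to 24.1% and the Spry1 part is larger in both libraries labelled with DNMT1 siRNA, at 10.9% and 17.2%, than in control at 3.99% and OB at 6.32%.

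The annotated Fgfr2 gene (chr7:130162451-133123350, minus strand, GRCm38) spans 2961 kb, against 104 kb in RefSeq, and other genes lie within it. Of its 22 exon blocks, 2 lay upstream of the RefSeq transcription start, and they held 314 of 10328 exonic bases (3.04%). These bases were all shared with exons of Ctbp2, a transcriptional corepressor gene on the same strand. Ctbp2 had 1133, 1053, 832 and 1115 counts in control, siDNMT1, OB and the library labelled siDNMT1_OB, with log2 fold changes between -0.18 and 0.18, so it did not vary as Fgfr2 did. Of 68 other genes inside the span, 19 had a mean of at least 1 CPM, and 0 of 19 had a log2 fold change as high as that of Fgfr2 in any of the 4 comparisons. Their medians lay between -0.06 and 0.11. Of the 19, 3 were called higher and 0 lower in OB against control (10.6% and 7.1% of all tested genes). The library labelled siDNMT1_OB against siDNMT1 had 1 higher and 1 lower (6.83% and 2.71%), and siDNMT1 against control had 1 lower (1.37%). Several of the 19 rose by scaled level in the same library order as Fgfr2, among them Fam53b with 234, 322, 445 and 669 counts. Of all genes inside the span, the most abundant were Oat, an ornithine aminotransferase (4269, 4224, 4573 and 5508 counts), the spindle checkpoint gene Bub3 (3142, 2878, 1520 and 2210) and the acyl-CoA dehydrogenase gene Acadsb (1382, 1539, 2689 and 2589).

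The ligands fell into a low and a high gene. Fgf2 (chr3:37348346-37410108, plus strand), a mitogen for mesenchymal cells, had 86 counts (3.17 CPM) in control, 72 (2.81 CPM) in siDNMT1, 279 (12.3 CPM) in OB and 274 (10.2 CPM) in the library labelled siDNMT1_OB. It was higher in both induced libraries than in both untreated ones, with log2 fold changes of 1.93 (1.61 to 2.33) and 1.84 (1.49 to 2.26). Its siDNMT1 differences were -0.17 (-0.65 to 0.29) and -0.27 (-0.51 to -0.02). Fgf7 (chr2:126034658-126091185, plus strand), also known as keratinocyte growth factor and made by mesenchyme for epithelium, had 3352 counts (124 CPM) in control, 3204 (125 CPM) in siDNMT1, 2257 (99.8 CPM) in OB and 3576 (134 CPM) in the library labelled siDNMT1_OB. The OB library stood below the other 3, and the log2 fold change was -0.31 (-0.39 to -0.23) in OB against control and 0.42 (0.34 to 0.50) in the library labelled siDNMT1_OB against OB. The library labelled siDNMT1_OB against siDNMT1 gave 0.10 (0.03 to 0.16), the other direction. Per kilobase, Fgf7 stood at 81.4, 92.9, 16.9 and 27.3 times the level of Fgf2 in control, siDNMT1, OB and the library labelled siDNMT1_OB.

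Fgf2 shares 640 exonic bases (9.44%) with Nudt6, a gene on the opposite strand. Nudt6 had 36, 28, 66 and 57 counts, with log2 fold changes of 1.09 in OB against control and 0.91 in the library labelled siDNMT1_OB against siDNMT1. The use of strand in counting was not stated, so the reads of the pair cannot be fully told apart. In all, 5 of 10 genes shared exonic bases with another annotated gene (Fgfr1, Fgfr2, Fgfr3, Fgf2 and Spry1).

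Of 16 other FGF ligand genes, 2 passed the expression minimum. Fgf10, a mesenchymal ligand of the epithelial FGFR2 form, had 240 counts in the control library, 186 in siDNMT1, 554 in OB and 467 in the library labelled siDNMT1_OB, so it was called higher with induction, as Fgf2 was, at 1.46 (1.25 to 1.69) and 1.26 (1.02 to 1.52). Fgf18, a ligand of skeletal development, had 50, 49, 21 and 38 counts and was not called. Fgfr4, Kl and Klb, the other receptor and the klotho co-receptors, did not reach 1 CPM.

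The feedback genes did not move as a block. Spry1 (chr3:37639947-37644598, plus strand), an intracellular inhibitor of receptor tyrosine kinase signalling, had 62 counts (2.29 CPM) in control, 157 (6.13 CPM) in siDNMT1, 48 (2.12 CPM) in OB and 203 (7.59 CPM) in the library labelled siDNMT1_OB. The 2 libraries labelled with DNMT1 siRNA were high and the other 2 low, with no overlap of counting intervals between them. The log2 fold change was 1.39 (0.99 to 1.87) in siDNMT1 against control and 1.80 (1.38 to 2.32) in the library labelled siDNMT1_OB against OB. The 2 effects differed by 0.41 (-0.21 to 1.03), within counting error. Between induced and untreated libraries Spry1 differed little, by -0.10 (-0.68 to 0.46) and 0.30 (0.00025 to 0.62).

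Spry2 (chr14:105891947-105896819, minus strand), the most abundant Sprouty gene per length, had 1022 counts (37.7 CPM) in control, 879 (34.3 CPM) in siDNMT1, 484 (21.4 CPM) in OB and 650 (24.3 CPM) in the library labelled siDNMT1_OB. It was lower in both induced libraries, by log2 fold changes of -0.81 (-0.98 to -0.66) and -0.50 (-0.65 to -0.35). Its siDNMT1 differences were small and of opposite sign, -0.13 (-0.27 to -0.0037) and 0.18 (0.01 to 0.36). Spry4 was at the edge of detection with 26, 29, 16 and 56 counts. Its level was 0.959, 1.13 and 0.707 CPM in control, siDNMT1 and OB, and 2.09 CPM in the library labelled siDNMT1_OB. Without that last library its mean lay under the minimum of 1 CPM. The filter thus partly fixed its call and its difference of effects. The library labelled siDNMT1_OB was the high one, at 1.47 (0.74 to 2.47) against OB, and the siDNMT1 effects differed by 1.24 (0.14 to 2.35) between the states. The call of Spry4 was lost in additive models of both factors, at 0.89 in edgeR and 0.90 in DESeq2. Per kilobase, Spry1 stood at 0.0436 of the Spry2 level in control and 0.224 of it in the library labelled siDNMT1_OB. Spry1 shares 710 exonic bases (24.4%) with Gm42922, an opposite-strand model with 1, 4, 0 and 6 counts.

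Dusp6 (chr10:99263231-99267489, plus strand), a phosphatase that inactivates ERK, had 1046 counts (38.6 CPM) in control, 1168 (45.6 CPM) in siDNMT1, 420 (18.6 CPM) in OB and 907 (33.9 CPM) in the library labelled siDNMT1_OB. OB was the low library and stood apart from the other 3. The log2 fold change was -1.05 (-1.22 to -0.89) in OB against control but -0.43 (-0.55 to -0.30) in the library labelled siDNMT1_OB against siDNMT1. It was 0.24 (0.12 to 0.36) in siDNMT1 against control and 0.87 (0.70 to 1.04) in the library labelled siDNMT1_OB against OB, a difference of effects of 0.62 (0.42 to 0.83). The call of Dusp6 in OB was lost in additive models of both factors, at -0.73 in edgeR and -0.74 in DESeq2.

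**Figure D3:**
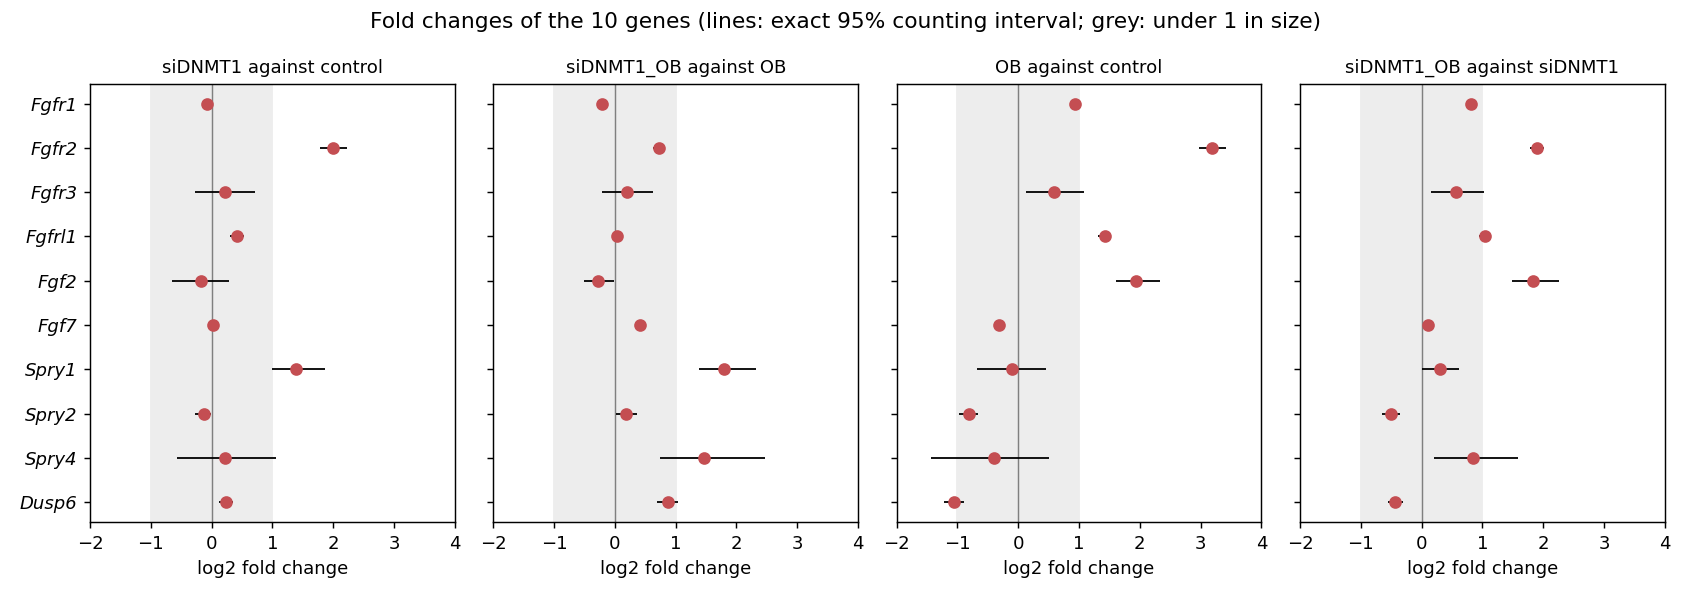
Log2 fold change (horizontal axis) of the 10 genes in the 4 comparisons, with exact 95% counting intervals as lines and sizes under 1 shaded grey. The library labelled siDNMT1_OB enters the panels that name it, and the comparisons share libraries. Fgfr2 is at 1.99, 0.72, 3.18 and 1.90, and Spry1 at 1.39, 1.80, -0.10 and 0.30.

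Set against all genes, a gene was called where its log2 fold change reached 1 in either direction. In siDNMT1 against control, 2 of 10 genes were called higher (Fgfr2 and Spry1) and 0 lower, where 1.97% of the tested genes were higher and 1.37% lower (3.34% in all). In the library labelled siDNMT1_OB against OB, 2 were higher (Spry1 and Spry4) and 0 lower, against 2.36% and 1.37% (3.73% in all). Spry4 passed the expression minimum only through its level in that library, so the filter partly fixed its call. Spry1 was the one gene of the 10 called in both. Of 4 endothelial markers 1 moved with Spry1: the receptor gene Tek had 51, 152, 63 and 203 counts in the order control, siDNMT1, OB and the library labelled siDNMT1_OB. The list's sum (2.25, 6.21, 3.18 and 7.81 CPM) was nearly all Tek, while Pecam1 (8, 4, 4 and 3 counts), Kdr (1, 0, 4 and 3) and Cdh5 (1, 3, 1 and 0) were near 0. In OB against control, 3 were higher (Fgfr2, Fgf2 and Fgfrl1) and Dusp6 was lower, against 10.6% and 7.1% of tested genes (17.7% in all). In the library labelled siDNMT1_OB against siDNMT1 the same 3 were higher and 0 lower, against 6.83% and 2.71% (9.54% in all). The median over the 10 was 0.22, 0.31, 0.24 and 0.70 in this order, against 0.00 to 0.01 over all tested genes. These comparisons share libraries. With so few genes the counts are a description, and Spry1 and Spry4 are among the 3 with a mean under 5 CPM. Under an additive edgeR model of both factors, 0 of 10 genes and 0 of 13233 in all kept a call for DNMT1 siRNA after Benjamini-Hochberg adjustment, with 3 and 1148 at an unadjusted p under 0.05. The fitted log2 fold changes there were 1.62 for Spry1 and 1.31 for Fgfr2, both over 1, so the adjusted p ended their calls. That of Spry4 was 0.89, under 1. The same model in DESeq2 called 2 of 10 (Fgfr2 and Spry1) and 91 in all, with Spry4 at 0.90. Between states, the siDNMT1 effect differed by at least 1 upwards in 1 of 10 genes (Spry4) and 3.27% of tested genes, and downwards in 1 (Fgfr2) and 2.95%.

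Levels were ordered per kilobase of all annotated exons, and again per kilobase of the longest coding transcript, a length added after seeing the data. In control, Fgf7, Fgfr1, Fgfrl1, Spry2 and Dusp6 had 12.3 to 38 CPM per kb of exon, and the other 5 had 0.209 to 0.787. By the coding transcript the same 5 were ahead, with 13.8 to 46.3 against 0.202 to 1.75. Fgf7 led in control by either length, and Spry4 was the lowest of the 10 in each library by either length, though within counting error of Fgfr3 in the library labelled siDNMT1_OB by exon length. The place of Fgfr1 and Fgfr2 depended on the length. In OB, Fgfrl1 at 40.3 and Fgfr1 at 39.1 CPM per kb of exon were within counting error of each other, whereas by the coding transcript Fgfr1 led with 76.6 against 48.2. In the library labelled siDNMT1_OB, Spry2 at 11.6, Fgfr2 at 11 and Dusp6 at 10.8 were each within counting error of the next by exon length, whereas by the coding transcript Fgfr2 stood at 26.3, above Dusp6 at 12.1 and Spry2 at 11.6. Fgfr2 was above Dusp6 in OB by both lengths, at 6.68 against 5.93 and at 16 against 6.64.

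Other genes of the pathway were counted from lists of 86 genes, of which 63 passed the expression minimum. In siDNMT1 against control 0 of 63 were called in either direction (3.34% of all tested genes). The library labelled siDNMT1_OB had 3 higher and 1 lower against OB, or 6.35% (3.73% of all tested genes), and 2 higher and 4 lower against siDNMT1, or 9.52%, close to the 9.54% of all tested genes. In OB against control 3 were higher and 14 lower, or 27% (17.7% of all tested genes). The calls that were lower with induction were mostly transcription factors and other early genes that MAP kinases induce.

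Of 12 such target genes, 10 were called lower and 0 higher in OB against control (7.1% and 10.6% of all tested genes), and their median log2 fold change was -1.27. The immediate-early factor Egr1 had 5179 counts in the control library, 4081 in siDNMT1, 473 in OB and 765 in the library labelled siDNMT1_OB, or -3.19 (-3.33 to -3.05) in OB against control. The AP-1 member Fosl1 had 1443, 744, 180 and 354 counts, or -2.73 (-2.97 to -2.52). Etv4, an ETS factor that FGF signalling induces in many tissues, had 654, 550, 119 and 355 counts, or -2.18 (-2.49 to -1.91). All 3 were lowest in OB. In the library labelled siDNMT1_OB against siDNMT1, 3 of 12 were lower (2.71% of all tested genes): Egr1 at -2.47 (-2.59 to -2.37), Ier2 at -1.31 (-1.47 to -1.17) and Fosl1 at -1.13 (-1.32 to -0.95). Against OB, the same library had 2 of 12 higher (2.36% of all tested genes), Fos at 1.34 (0.63 to 2.27) and Etv4 at 1.32 (1.03 to 1.65), with 11 of 12 above 0 (52.2% of all tested genes) and a median of 0.43. In siDNMT1 against control 0 of 12 were called (3.34% of all tested genes), the median was -0.12, and Fosl1 stood farthest from 0 at -0.87. Cycling-cell markers moved with these values (1891, 1732, 411 and 796 CPM, with OB lowest). Their part in the result was not tested.

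Several other feedback inhibitors were, like Dusp6, lowest in OB. Of 9 tested, 3 were called lower in OB against control (7.1% of all tested genes), with a median of -0.70. Dusp4, a nuclear MAP kinase phosphatase, had 671 counts in the control library, 557 in siDNMT1, 99 in OB and 311 in the library labelled siDNMT1_OB, or -2.48 (-2.82 to -2.19) in OB against control. The ERK phosphatase gene Dusp5 had 1047, 971, 254 and 474 counts, or -1.77 (-1.98 to -1.58), and Spred2, a Sprouty relative, had 1450, 997, 602 and 928, and was the weakest of the 3 calls (interval -1.15 to -0.87). Dusp4 was higher in the library labelled siDNMT1_OB against OB, at 1.39 (1.08 to 1.75), 1 of 9 where 2.36% of all tested genes were higher, with 8 of 9 above 0 (52.2% of all) and a median of 0.24. Against siDNMT1, Dusp5 was lower at -1.09 (-1.26 to -0.94), 1 of 9 where 2.71% of all were lower. In siDNMT1 against control 0 of 9 were called (3.34% of all tested genes). Adipocyte markers summed to 41.2, 45.1, 101 and 92.9 CPM in control, siDNMT1, OB and the library labelled siDNMT1_OB. Fabp4 carried most of that shift (4.09, 2.81, 42.6 and 48.8 CPM), while Pparg was at 33.8, 33.9, 45.5 and 32.1 CPM, Cebpa at 2.88, 7.38, 10.7 and 10.9, Lpl at 0.369, 0.976, 2.08 and 1.08, and Adipoq and Plin1 at or under 3 counts. Chondrocyte markers summed to 486, 686, 413 and 757 CPM, mostly Col2a1 (390, 525, 207 and 516 CPM). Sox9 (94, 158, 196 and 232 CPM), Comp (0.995, 1.25, 6.63 and 3.96) and Matn3 (0.737, 2.3, 3.54 and 4.11) were higher in OB than in control, and Acan was at 0. The part of these markers in the induction differences was not tested.

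Of 19 adaptor and RAS-MAPK genes, 0 were called in any of the 4 comparisons, where 3.34%, 3.73%, 17.7% and 9.54% of all tested genes were called. The largest siDNMT1 difference was that of the adaptor Grb2, at -0.87 (-0.97 to -0.77) before induction and -0.56 (-0.67 to -0.46) after it. In OB against control the GTPase gene Hras stood at -0.95 (-1.08 to -0.82) and the phospholipase gene Plcg1 at 0.77 (0.69 to 0.85). Of 9 heparan sulfate carriers and FGF-binding proteins, the syndecan Sdc3 was lower at -1.30 (-1.40 to -1.20) and the glypican Gpc6 higher at 1.12 (0.95 to 1.30) in OB against control (7.1% and 10.6% of all tested genes), and 0 were called in the other 3 comparisons. Of 12 heparan sulfate enzymes, Sulf2, an extracellular 6-O-sulfatase, was the 1 gene called with induction, higher at 1.97 (1.89 to 2.05) and 1.22 (1.14 to 1.30), where 10.6% and 6.83% of all tested genes were higher. Hpse, the heparanase gene, was lower in the library labelled siDNMT1_OB against OB at -1.03 (-1.51 to -0.61), on 66 and 116 counts, where 1.37% of all tested genes were lower.

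**Figure D4:**
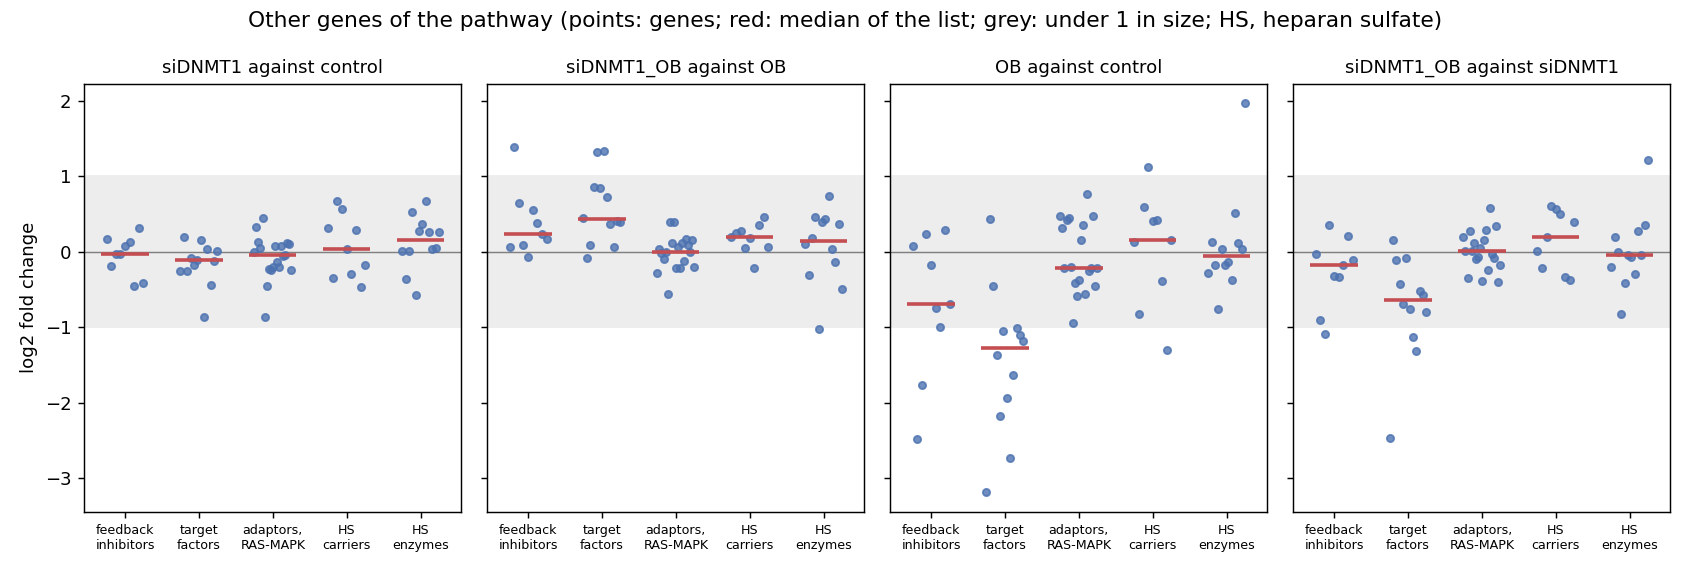
Log2 fold change (vertical axis) of the other pathway genes by list in the 4 comparisons, 1 point per gene, with the list's median in red and sizes under 1 shaded grey. The library labelled siDNMT1_OB enters the panels that name it. In OB against control the 12 target genes centre on -1.27 and the 9 feedback inhibitors on -0.70, while the 19 adaptor and RAS-MAPK genes stay within the grey band in each panel.

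Over the 4 libraries, the genes whose profile lay nearest to that of Fgfr2 were Oas1a, E230013L22Rik, Rgs7, Lmod1 and Arhgef6. Likeness was measured as the distance between centred log2 CPM profiles over the 4 libraries, and it ran from 0.29 to 0.38 over these 5, the nearest of 13232 genes. Lmod1, a leiomodin gene of smooth muscle, was the one with comparable counts (134, 694, 1307 and 2748 in control, siDNMT1, OB and the library labelled siDNMT1_OB). The others had at most 107 counts in any library.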

How the data were processed

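RNA was sequenced from 4 libraries, 1 per group. Per the study's methods, the authors made TruSeq libraries from poly(A) RNA, sequenced paired ends and used Trimmomatic for trimming, HISAT2 for alignment and featureCounts for counting (versions for the RNA reads not given in the sources used here). They deposited raw counts per gene, in whole numbers and not normalized. The submitters' processing notes name mm10, and coordinates are on GRCm38 as in the table. Strand use and multi-mapped reads were not stated. Counts were scaled by TMM (edgeR 4.0.16 in R 4.3.3) over the 13233 of 54532 genes that reached a mean of 1 CPM. Log2 fold changes used a prior count of 2, with exact 95% intervals from the counts (SciPy 1.17.1), and a gene was called at a log2 fold change of at least 1 in size. CPM printed as levels are counts scaled to a TMM-corrected library size of 1000000. The pipeline was run on simulated counts with known changes. These held counting error only, so they cannot show how the calls fare under variation between cultures.

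Named genes were the 10 genes, Dnmt1, the 3 most abundant genes inside the Fgfr2 span and the 5 genes nearest to Fgfr2 in profile. From the lists, genes among the 3 largest differences per list and comparison were named, though not all of them. Genes sharing exons with a member, and Fgfr4, were added later. Kl, Klb, Fam53b and cell-type markers were named outside these rules. The genes and lists were chosen with earlier results of these data known. Alternatives were other scalings, prior counts, expression minimums, a coding-transcript length and additive fits in edgeR and DESeq2 1.42.0. Sequences came from RefSeq and exon overlaps from the exon coordinates of the count table. The other Fgfr2 starts and the coding-transcript lengths came from GENCODE M21.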

Additional observations from a re-analysis of the deposited data

Results flagged for a closer look

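The siDNMT1 effect on Spry2 was of opposite sign in the 2 states, -0.13 untreated and 0.18 after induction, a difference of 0.32 on the log2 scale (0.10 to 0.53 by counting error). The induction effect on Fgf7 was -0.31 in OB against control and 0.10 in the library labelled siDNMT1_OB against siDNMT1, a difference of 0.40 (log2 scale). In both cases the 2 effects had opposite signs and each counting interval left out 0, but that of Spry2 in siDNMT1 against control ended at -0.0037, and other scalings moved its fold change to as near 0 as -0.11. With 1 library per group these differences were not tested, and both rest on the library labelled siDNMT1_OB.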

How the results depend on the processing

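No paired analysis was possible because the groups, with 1 library each, share no further replicate number. Under the other scalings and prior counts tried, 0 of 40 member fold changes changed their call or sign, where TMM without the library labelled siDNMT1_OB covered only siDNMT1 against control and OB against control. Of 448 member fold changes under all alternatives, 402 moved by less than counting error and 46 by more, all of these in the additive fits, which give 1 effect for both states (1 residual degree of freedom). No called value changed sign. Among values that were not called, 4 changed sign in the additive edgeR fit: Spry2 in siDNMT1 against control (0.02), Spry1 (0.13) and Spry4 (0.32) in OB against control, and Fgf7 in the library labelled siDNMT1_OB against siDNMT1 (-0.11), and the DESeq2 fit gave 0.02, 0.11, 0.25 and -0.11. Counts of called genes varied with the expression minimum and in the additive fits, whose call also asks for an adjusted p under 0.05. For siDNMT1 against control, 442 genes became 2598 with no minimum, 201 at a mean CPM of at least 5, 0 in the additive edgeR fit (1148 at an unadjusted p under 0.05) and 91 in DESeq2. For the library labelled siDNMT1_OB against OB, 493 became 3273, 257, 0 and 91, the additive fits being the same as above. Here the balance turned with no minimum, to 1381 higher and 1892 lower from 312 higher and 181 lower. In the other comparisons higher calls outnumbered lower ones with and without the minimum. For OB against control, 2344 became 6142, 1555, 1501 and 1396. For the library labelled siDNMT1_OB against siDNMT1, 1262 became 3866 with no minimum and 738 at a mean CPM of at least 5. That minimum removed Fgfr3, Spry1 and Spry4, so members called went from 2 to 1 in siDNMT1 against control and from 2 to 0 in the library labelled siDNMT1_OB against OB, and members whose effect differed by at least 1 from 2 to 1. The additive edgeR fit left 0 members called in either siDNMT1 comparison. Spry1 at 1.62 and Fgfr2 at 1.31 missed the adjusted p there, not the fold. Spry4, at 1.47 in the library labelled siDNMT1_OB against OB, fell under a size of 1, with 0.89 in edgeR and 0.90 in DESeq2. Both additive fits ended the lower call of Dusp6 with induction (-0.73 in edgeR and -0.74 in DESeq2), leaving 3 higher and 0 lower. The per-length ratio of Fgfr1 to Fgfr2, 5.28 over all libraries, became 4.32 with the longest coding transcript (the order of levels by both lengths stands above), a length chosen after seeing the data, as were the TMM over all genes and the TMM without the library labelled siDNMT1_OB. Depth limits Spry4, Fgfr3, Fgf2 and Spry1 most.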
